A study of Mus musculus with 4 samples.

Results

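The M5 Synpo2 neurons are 1 of 37 neuron populations that the authors named in nuclei of the mouse mediobasal hypothalamus, the base of the brain region that controls feeding, body temperature and hormone release. Their members are the nuclei whose deposited population name begins with M5 (written M5.Snypo2 in the table), which gave 266 of 23261 neuronal nuclei (1.14%) and of 36523 annotated nuclei in all. The mice were wild-type, ate chow ad libitum and received saline or insulin before the hypothalamus was dissected and its nuclei were isolated, cleaned by sorting and profiled by droplet-based 3' RNA sequencing. The labels give no dose, route, time, sex or number of mice. The 4 libraries were 1 Saline and 1 Insulin library in each of 2 sequencing runs, named NovaA-230 and NovaA-232 in the deposited table.

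Synpo2 encodes an actin-binding protein that is best known from the Z-discs of muscle and that belongs to the synaptopodin family, whose founding member, Synpo, is needed for the spine apparatus of neurons. Neurons of the thalamus and of nearby excitatory nuclei are commonly recognised by the transcription factor Tcf7l2, by the vesicular glutamate transporter Slc17a6 and by the adhesion protein Ntng1, whereas hypothalamic neurons are usually recognised by their neuropeptides, by GABA synthesis or by hormone receptors. Tcf7l2 and Lef1 are nuclear partners of beta-catenin in the Wnt pathway.

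Saline NovaA-230 held 45 M5 nuclei and 447552 UMIs (unique molecules counted), Saline NovaA-232 held 90 and 1144717, Insulin NovaA-230 held 60 and 811708, and Insulin NovaA-232 held 71 and 847150. The median M5 nucleus had 10814.5 UMIs, against 8422 in all other neurons. No nucleus identifier was repeated in the deposited matrix or in the annotation. The library of Saline NovaA-230 had the fewest M5 nuclei and, as described below, a different mixture of them. Xist and the Y-linked genes split the libraries by run, so that run and sex cannot be told apart. Marker genes of other cell types were far below the level in their own types. In M5, 5 astrocyte markers together reached 29.0 to 106 CPM (counts divided by all UMIs of the same nuclei and scaled to 1e+06). The median of the other neuron populations was 62.4 CPM, and astrocytes reached 6819 CPM. For 5 oligodendrocyte markers M5 was at 68.5 to 76.4 CPM, against 106 CPM in that median and 11281 in oligodendrocytes. All 4 microglial markers together reached 119 to 199 CPM against 2324 in microglia. That was above the median of the other populations (112 CPM) and up to their highest mean (198 CPM), with P2ry12 among the 3 highest places. The mural cell marker Rgs5 was at 0 UMIs.

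The share of M5 nuclei among neurons was 0.707% (exact 95% interval 0.516 to 0.945%) in Saline NovaA-230 and 1.69% (1.36 to 2.07%) in Saline NovaA-232. It was 1.10% (0.842 to 1.42%) in Insulin NovaA-230 and 1.16% (0.906 to 1.46%) in Insulin NovaA-232. The intervals cover counting error only. Both Insulin values lay between the Saline values. Insulin libraries averaged 1.13% ± 0.0403 (SD, n = 2) and Saline libraries 1.20% ± 0.695 (SD, n = 2), a difference of -0.0677 percentage points (2-sided exact permutation test, p = 1). The 2 libraries of run NovaA-232 were above the 2 of run NovaA-230, at 1.42% ± 0.375 against 0.905% ± 0.279, with an exact permutation p of 0.33, the smallest that 2 against 2 libraries can give.

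Synpo2 itself marked the population. Its level in M5 was 286 CPM in Saline NovaA-230, 431 CPM in Saline NovaA-232, 525 CPM in Insulin NovaA-230 and 496 CPM in Insulin NovaA-232. In the next population, M33.Glp1r/Ebf1, it was 56.1 to 71.8 CPM, and the median of the other 34 populations compared was 12.7 CPM. No other population reached the lowest M5 library. A Synpo2 UMI was found in 225 of 266 M5 nuclei (84.6%, exact 95% interval 79.7 to 88.7%), in 2277 of 22995 other neurons (9.90%), and in 24 of 2921 oligodendrocytes (0.822%), where the gene would not be looked for. By library the M5 share was 68.9%, 93.3%, 80.0% and 87.3% in the order Saline NovaA-230, Saline NovaA-232, Insulin NovaA-230 and Insulin NovaA-232. Those nuclei differ in depth, with a median of 2354 UMIs in oligodendrocytes. After each nucleus was thinned to 2000 UMIs, the shares were 52.6% in M5, 2.92% in other neurons (214 shallower nuclei left out) and 0.366% in oligodendrocytes (1008 left out). The level of a gene across populations is a description without a test, because the authors formed the populations from the same counts.

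Synpo2 lies on the minus strand of chromosome 3, at chr3:123076519-123236149 in the GRCm38 annotation. The 250 bases before its start, chr3:123236150-123236399 on the minus strand, are shown because the population is named for this gene; they come from the RefSeq promoter table (GRCm38.p6).
Synpo2: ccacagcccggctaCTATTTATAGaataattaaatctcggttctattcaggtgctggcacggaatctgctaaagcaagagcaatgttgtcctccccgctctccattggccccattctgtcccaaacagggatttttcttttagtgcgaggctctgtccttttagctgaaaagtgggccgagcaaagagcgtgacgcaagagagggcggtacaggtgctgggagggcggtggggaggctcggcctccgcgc
The capitals mark the letters CTATTTATAG, which match the MEF2 motif, the sequence that MEF2 transcription factors bind in muscle genes, and start 236 bases before the gene. The motif was picked after the sequence had been read. On either strand it occurred in 160 of 27025 promoter windows of the same length (0.592%) and in 1 of the 21 windows found for the 25 genes described next, that of Synpo2. The binding core of Tcf7l2 and Lef1, ATCAAAG on either strand, occurred in 0 of those 21 windows and in 1005 of all 27025 (3.72%). Of the MEF2 genes, Mef2a was highest in M5 at 340 CPM against at most 269 CPM elsewhere, and Mef2c (173 CPM in M5) was 13 of 35. A match describes letters in this window and is neither a binding site nor a cause.

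Of 10581 genes with at least 20 CPM in at least 1 population, 74 (0.699%) were highest in M5 in each of the 4 libraries and had at least 20 CPM there. The 25 with the largest ratio to the other populations form the signature that is described here. In the annotation 18 of them were protein-coding, 5 were long intergenic non-coding RNAs, 1 was an antisense RNA and 1 had no match. The plot of levels by population shows how far M5 stood from the next population for Synpo2 and Tcf7l2, and where it stood for Slc17a6.

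**Figure D1:**
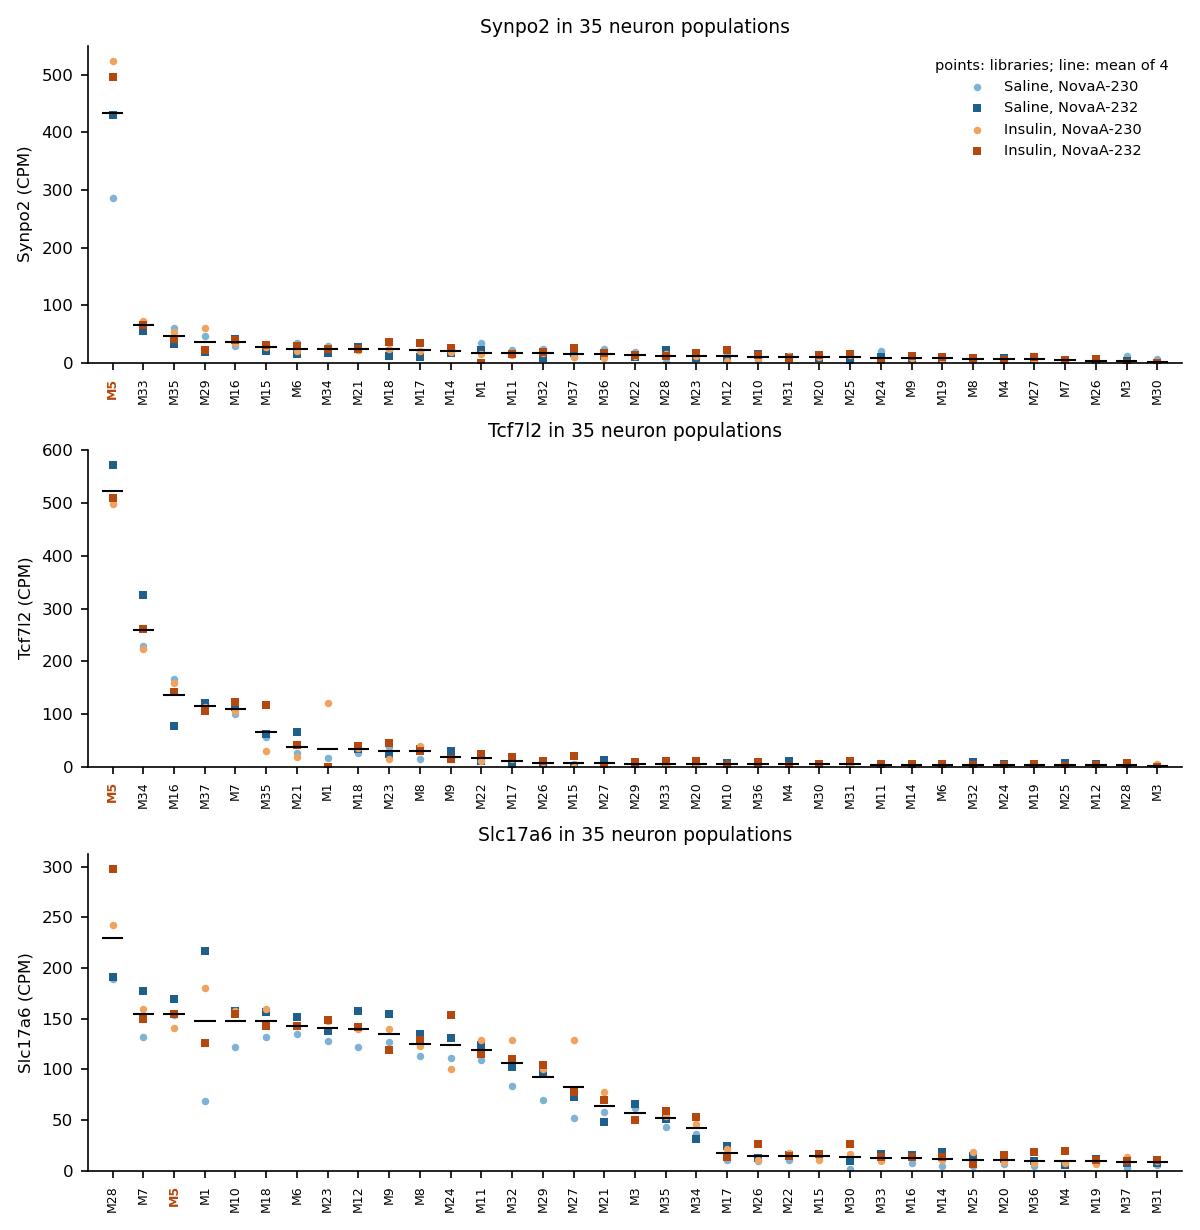
CPM of Synpo2, Tcf7l2 and Slc17a6 in 35 neuron populations, ordered by mean, with 1 point for each library and a line at the mean of 4. M5 is first for Synpo2 (434 CPM, next 64.9) and Tcf7l2 (523 CPM, next 260) and is 3 of 35 for Slc17a6 (155 CPM), where the libraries of neighbouring populations overlap.

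By the ratio to the other populations, the protein-coding members were led by Shox2, Rnf220, Synpo2, Kitl, Edaradd and Tcf7l2. Shox2, a homeobox factor of limb, heart and brain development at chr3:66971727-66981771 on the minus strand, was at 33.5, 29.7, 27.1 and 23.6 CPM in Saline NovaA-230, Saline NovaA-232, Insulin NovaA-230 and Insulin NovaA-232. The next population, M3.Pmch, held 2.76 to 13.9 CPM of it, so the ranges did not overlap. A Shox2 UMI was found in 67 of 266 M5 nuclei (25.2%), against 254 (95.5%) for Tcf7l2. Rnf220, a ubiquitin ligase at chr4:117271463-117497052 on the minus strand, was at 1555, 1253, 1322 and 1053 CPM in the same order, and the next population, M20.GABA, reached 136 to 244 CPM. Tcf7l2, the Wnt effector at chr19:55741820-55933654, was at 509, 573, 498 and 510 CPM, and M34.Esr1/Npy1r was next at 222 to 326 CPM. All 4 M5 libraries lay above every library of the next population for each of these genes.

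The other protein-coding members included genes of surface, signalling and scaffold proteins. Ntng1, an adhesion protein that sits on axons of thalamic neurons, was at 2710, 2859, 3251 and 2815 CPM, and M30.Gal, the next population, at 1071 to 1330 CPM. Kitl, the ligand of the receptor tyrosine kinase Kit, was at 165, 103, 115 and 119 CPM against 19.9 to 23.6 CPM in M21.Nfix. Those ranges were apart for both genes. Grid2ip, a scaffold of delta-type glutamate receptors, averaged 30.7 CPM ± 7.53 (SD, n = 4) and was at most 6.16 CPM on average in any other population. Ptpn3, a tyrosine phosphatase, averaged 163 CPM ± 42.8 (SD, n = 4) against at most 66.4 CPM elsewhere. Prkch, a protein kinase C, averaged 102 CPM ± 31.0 (SD, n = 4) against at most 25.2 CPM, and Nox4, an NADPH oxidase, 85.8 CPM ± 22.8 (SD, n = 4) against at most 20.6 CPM. The nucleoside transporter Slc29a1 averaged 69.7 CPM ± 25.4 (SD, n = 4) against at most 17.4 CPM. Edaradd, Cnksr3, Mctp2, Tanc1, Mboat1, Vangl1 and Rtn4rl1 complete the coding members, with M5 means of 22.5 (Mboat1) to 92.0 CPM (Tanc1).

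Gm19303, a long non-coding RNA, had the largest ratio of all: 62.6, 49.8, 71.5 and 37.8 CPM in the library order above, against a mean of at most 0.952 CPM in any other population. Gm12828 was at 127, 44.6, 60.4 and 28.3 CPM. It is annotated as antisense within Rnf220. The sources used here do not state whether the counting used the strand. Whether reads of Rnf220 entered its count is therefore uncertain and was not tested. The pair 4930407I19Rik and 1700023F02Rik overlap on opposite strands of chromosome 10, so their counts are uncertain in the same way. For both of them Saline NovaA-230 was the highest library, at 96.1 CPM and 46.9 CPM, and the other 3 libraries held 15.7 to 22.4 CPM and 13.6 to 21.2 CPM.

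M5 was high in vesicular glutamate transporter genes and low in genes of GABA synthesis. Slc17a6, the vesicular glutamate transporter of diencephalic neurons, was at 154, 169, 140 and 155 CPM, close together in all libraries. M5 was 3 of 35 for this gene after M28.Tac2 and M7.Ust. Libraries of M7.Ust (132 to 177 CPM) overlapped with it, and those of M28.Tac2 (189 to 298 CPM) did not. Slc17a8, a second vesicular glutamate transporter, was at 24.6, 17.5, 6.16 and 4.72 CPM, the second highest mean after M6.Slc17a8. Gad2, an enzyme of GABA synthesis, was at 15.6, 16.6, 18.5 and 21.2 CPM in M5 against a median of 133 CPM in the other populations, and Gad1 averaged 8.21 CPM against 60.5 CPM. All 4 GABA and glycine identity genes with at least 20 CPM in some population lay below the median of the others. As background for every such count, M5 lay above the median of the other 34 populations for 28.8% of the 10581 genes and among the 3 highest for 5.46%. It was among the 3 lowest for 24.8%, and its median place was 27 of 35.

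Genes known from thalamic relay neurons were the list in which M5 stood highest. Of its 16 genes, 14 had at least 20 CPM in some population, and M5 was above the others' median for 14 of these 14, among the 3 highest for 12 and highest in every library for 4, among them Tcf7l2, Ntng1 and Adarb1. Its median place was 2 of 35. Adarb1, an RNA-editing enzyme, was at 174, 204, 266 and 247 CPM, and the next population, M21.Nfix, at 101 to 114 CPM. The T-type calcium channel gene Cacna1g, which supports burst firing in thalamic cells, had its highest mean in M5 (115 CPM ± 10.9, SD, n = 4), but libraries of M28.Tac2 (76.9 to 119 CPM) overlapped. Rora, an orphan nuclear receptor, averaged 1360 CPM ± 98.7 (SD, n = 4), second to M9.Fezf1. The LIM homeobox factors Lhx2 and Lhx9 averaged 23.4 and 37.7 CPM, both second to M29.Hcrt/Npvf, and the zinc finger factor Zic1 40.3 CPM, second to M3.Pmch. Lef1 was 5 of 35 at 43.5 CPM and Prox1 10 of 35 at 50.0 CPM. The members Prkcd and Gbx2, which mark thalamic neurons and their precursors, stayed under 20 CPM everywhere, and had their highest means in M5 at 8.55 and 2.75 CPM. The list was drawn up with earlier results of these data known.

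**Figure D2:**
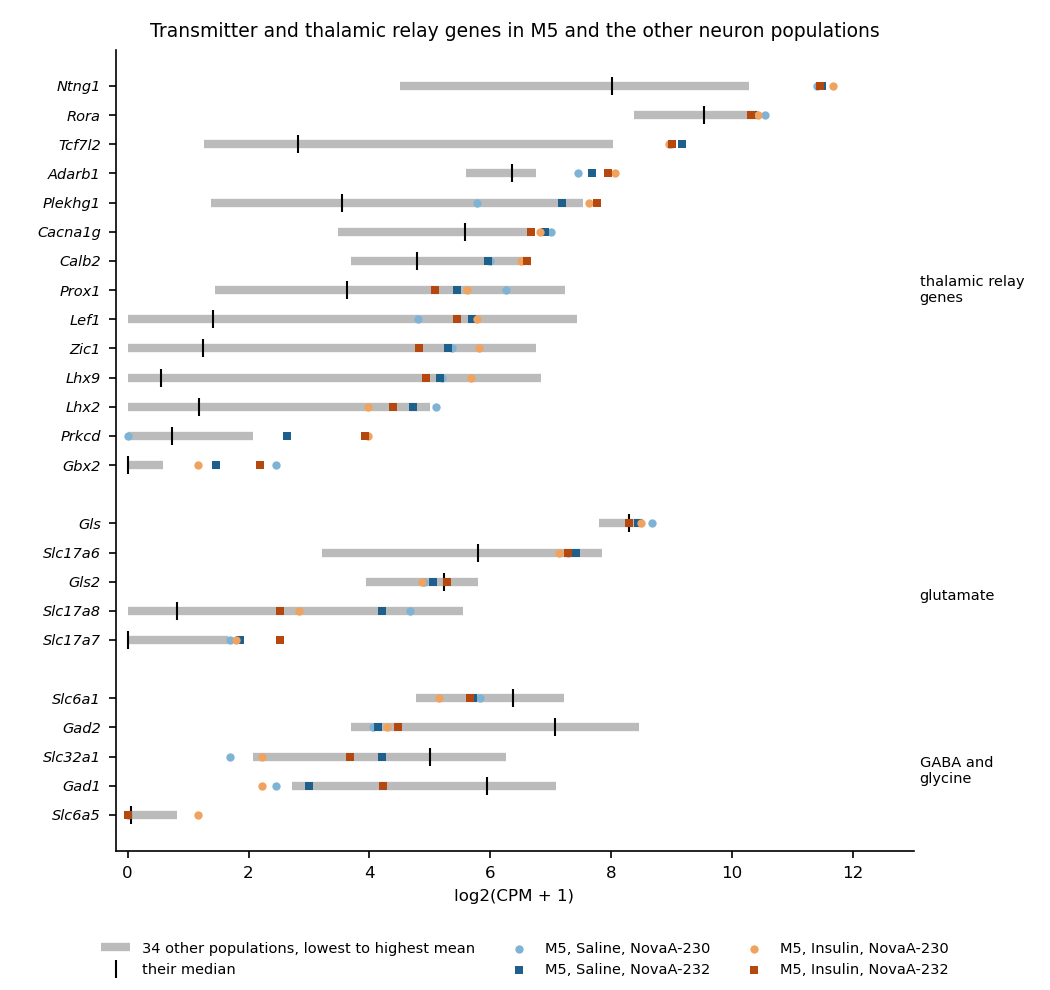
Levels in M5 (4 points, 1 for each library) as log2(CPM + 1), beside the range (grey) and median (tick) of the means of the 34 other populations, for genes known from thalamic relay neurons, glutamate genes, and GABA and glycine genes. Ntng1, Tcf7l2 and Adarb1 lie to the right of the grey range in every library, and Gad1, Gad2 and Slc32a1 lie to the left of the median.

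Lists for neighbouring regions were not raised in the same way. M5 was above the others' median for 3 of 9 mammillary and premammillary genes and for 1 of 6 genes of the zona incerta and the thalamic reticular nucleus. Foxp2, a forkhead factor in the mammillary list, was at 1405, 719, 728 and 778 CPM, the second highest mean after M24.Avp/Oxt, and Saline NovaA-230 stood above the other 3 libraries. Sim1, a factor of the paraventricular nucleus, averaged 5.75 CPM in M5 and 592 CPM in M24.Avp/Oxt. Nr5a1, a factor of the ventromedial nucleus, was at 0.963 CPM. Of the neuropeptide list, 8 of 27 genes lay above the others' median. Nts, Cck and the cerebellin-type genes Cbln2 and Cbln4 were among the 3 highest places, with means of 16.3, 11.7, 22.4 and 34.5 CPM in M5. Agrp averaged 96.3 CPM in M5 against a median of 94.5 CPM in the others and 855 CPM in M26.Agrp, and Pmch 36.7 CPM against 41.8 CPM and 3009 CPM in M3.Pmch. Both M5 means were close to the median of the other populations.

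Receptors and channels were mixed, with single genes high. Of 18 monoamine and acetylcholine receptor genes M5 was above the others' median for 12. Chrm3, a muscarinic receptor, was at 809, 778, 1101 and 969 CPM, the highest mean, with overlap of M18.Prlh (803 to 1030 CPM), and the serotonin receptor Htr7 averaged 171 CPM ± 21.1 (SD, n = 4), 3 of 35. Among glutamate receptors, Grm4 was highest in every library (46.9, 37.6, 57.9 and 34.2 CPM). Among GABA receptor genes, Gabra4 at 150, 187, 177 and 170 CPM and Gabbr2 at 389, 432, 551 and 495 CPM, were highest in every library too; the next populations reached at most 96.2 and 278 CPM. Kcnip4, an accessory subunit of A-type potassium channels, averaged 15617 CPM ± 3462 (SD, n = 4), second to M24.Avp/Oxt. The T-type channel gene Cacna1h was the lowest of 35 at 7.32 CPM against 31.8 CPM. The guidance receptor Robo1 was highest within every library, at 2773, 2168, 2703 and 2473 CPM, although the range of M12.Npffr1 (2088 to 2401 CPM) overlapped across libraries. Within the Synpo2 family and its actin partners, 1 of 12 genes, Synpo2, was among the 3 highest, and its relative Synpo was 18 of 35 at 12.6 CPM.

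Receptors for hormones and peptides and the genes of the insulin pathway lay above the median of the other populations about as often as all genes (28.8%). M5 was above the others' median for 9 of 30 hormone and peptide receptor genes, among the 3 highest for 0 of them and among the 3 lowest for 4, with a median place of 21. The growth hormone receptor Ghr averaged 92.1 CPM against a median of 235 CPM, the prolactin receptor Prlr was at 6.70 to 19.2 CPM against 55.7 CPM, the oestrogen receptor Esr1 16.6 CPM against 44.9 CPM, and the calcitonin receptor Calcr 0.809 CPM against 14.3 CPM; these are the 4 among the 3 lowest places. The leptin receptor Lepr was 9 of 35, far under the 473 CPM that it reached in M26.Agrp. For insulin and IGF signalling the count was 9 of 34 above the median and 9 of 34 among the 3 lowest, which is near the background. The insulin receptor Insr was at 105, 107, 107 and 82.6 CPM, 34 of 35, against a median of 118 CPM. The adaptor Irs4 averaged 2.03 CPM against 7.23 CPM and the insulin-controlled factor Foxo1 6.76 CPM against 17.7 CPM. Inpp4b, a phosphatase of phosphoinositides, and Shc3, a neuronal adaptor, had their highest means in M5, at 1224 CPM ± 245 and 154 CPM ± 21.3 (SD, n = 4), but libraries of the next populations overlapped with it.

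**Figure D3:**
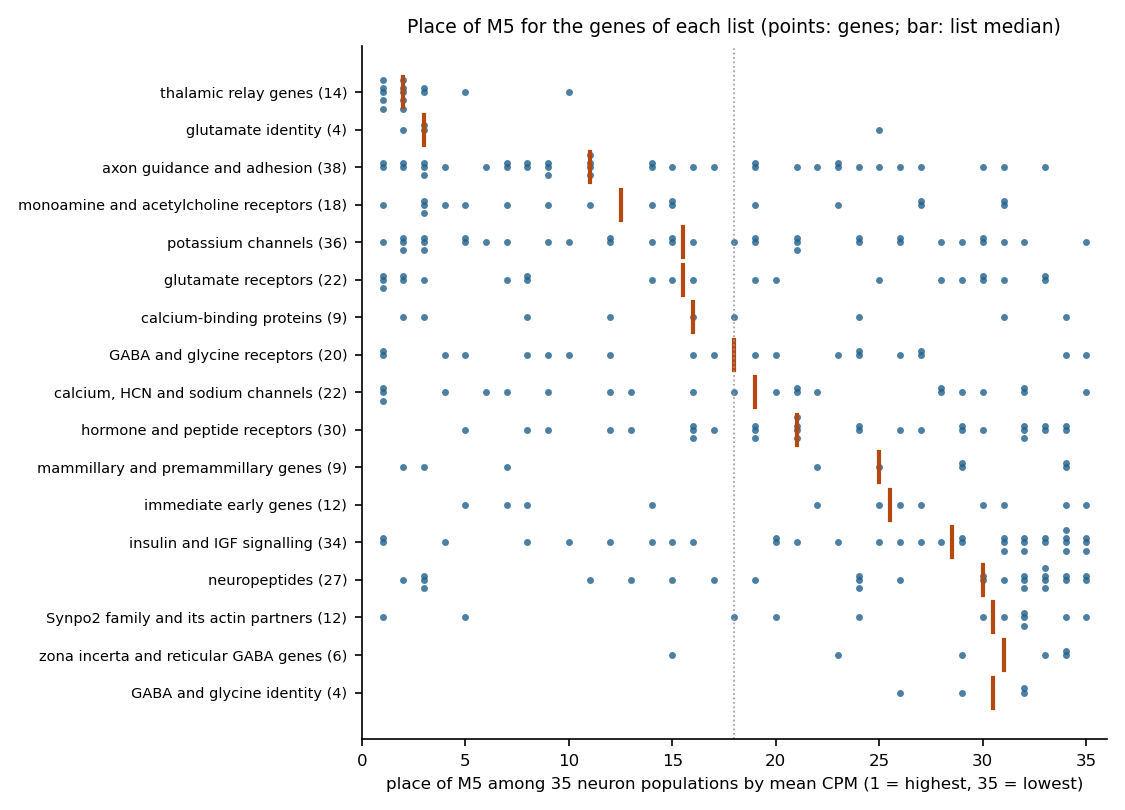
Place of M5 among 35 neuron populations by mean CPM, from 1 (highest) to 35 (lowest), for each gene of 17 lists (number of genes with at least 20 CPM in some population in brackets); the bar is the list's median and the dotted line the middle place. Thalamic relay genes have a median place of 2, insulin and IGF signalling 28.5 and neuropeptides 30, against 27 for all 10581 genes.

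The 3 populations most like M5 over the 10581 genes, by Pearson's r of log2 mean CPM, included M23.Sim1|Pou3f2 (0.943) and M20.GABA (0.933); the points share libraries, and no test was made. In a second deposited column of conserved clusters, 251 of the 266 M5 nuclei fell in the cluster C25.Pmch, together with 109 M3.Pmch nuclei and 100 M23.Sim1|Pou3f2 nuclei. M5 differed from both in Synpo2 and Tcf7l2: Synpo2 was at 0 to 11.1 CPM in M3.Pmch and at 8.69 to 16.3 CPM in M23.Sim1|Pou3f2, and Tcf7l2 at 0 to 5.58 CPM and 14.6 to 45.4 CPM. Not every gene above was particular to M5. Lef1 and Zic1 had higher means in M3.Pmch than in M5, at 172 and 108 CPM. Ntng1, lower than in M5, still averaged 1011 CPM in M3.Pmch and 673 CPM in M23.Sim1|Pou3f2. Slc17a6 in M23.Sim1|Pou3f2 (128 to 149 CPM) overlapped with M5.

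The 266 nuclei were not uniform. They were ordered by the first component of their most variable genes (793 genes, 6.82% of variance, next component 4.34%), with the 8 genes called in the comparison of treatment responses below kept out. The order was divided into sections of 89, 88 and 89 nuclei, called low, middle and high, which are ranges and not types: 35 nuclei lay within 0.1 SD of a cut. The score had a Pearson's r of 0.187 with UMIs per nucleus, and the median nucleus had 9106, 10252.5 and 12415 UMIs in the 3 sections. These levels describe genes that made the axis and carry no test.

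At the low end the strongest weights were those of the acid-sensing channel gene Asic2, the reelin adaptor gene Dab1 and Galntl6. Asic2 went from 2649 CPM in the low section to 1417 CPM in the middle and 473 CPM in the high section, and Dab1 from 1504 to 949.9 to 247 CPM. Sox5, Htr2c and Foxp2 were among the 15 strongest at this end, and Lhx9, Lhx2 and Nts are given as members of the lists above. Foxp2 was at 1278 CPM in the low, 965 CPM in the middle and 367 CPM in the high section, and the ranges over libraries were 1062 to 1548 CPM in the low section and 270 to 718 CPM in the high section. Sox5, a factor of projection neuron identity, went from 623 to 85.7 to 47.8 CPM, and Htr2c, a serotonin receptor, from 749 to 316 to 101 CPM. Lhx9 went from 74.3 to 31.6 to 14.8 CPM and Lhx2 from 42.0 to 24.4 to 5.77 CPM. Both factors thus lay mostly at the same end as Foxp2. The peptide gene Nts was at 44.1 CPM in the low section and at 6.31 and 2.47 CPM in the others, with 35.7 to 56.3 CPM in every library of the low section.

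At the high end the strongest weights were those of Kcnip4, Plekhg1, Ptpn3, Cit and Prkch. Kcnip4 went from 4440 to 13702 to 27067 CPM, and its libraries did not overlap between sections. Plekhg1, a guanine nucleotide exchange factor, reached 7.94 to 22.3 CPM in the libraries of the low section and 92.0 and 344 CPM in the other sections. Prkch went from 7.54 to 86.6 to 205 CPM, and Ptpn3 from 32.3 to 132 to 307 CPM. Lef1 went from 5.38 to 36.1 to 86.5 CPM, and Prkcd was at 0 UMIs in the low and middle sections and at 24.7 CPM in the high section. Synpo2 went from 283 to 426 to 603 CPM, while Shox2 stayed at 30.1, 27.1 and 27.2 CPM, Kitl at 125, 117 and 115 CPM, and Slc17a6 at 170, 167 and 136 CPM. Across the 266 nuclei, whose depth the values share, Foxp2 and Plekhg1 had a Pearson's r of -0.403 and Plekhg1 and Synpo2 of 0.458.

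Libraries differed in their mixture. Of the M5 nuclei of Saline NovaA-230, 53.3% were in the low and 13.3% in the high section. In Saline NovaA-232 these shares were 24.4% and 36.7%, in Insulin NovaA-230 26.7% and 43.3%, and in Insulin NovaA-232 38.0% and 33.8%. Saline NovaA-230 thus stood apart, and the other Saline library lay with the Insulin libraries.

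**Figure D4:**
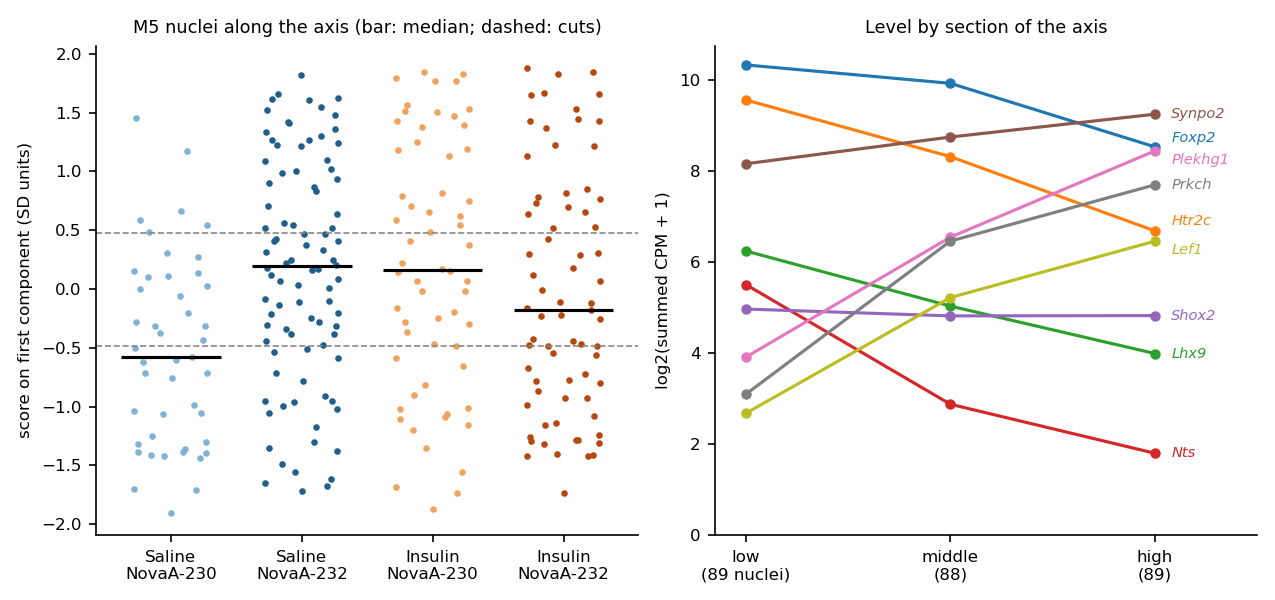
Left, score of each M5 nucleus on the first component (in SD units) by library, with the median as a bar and the cuts between sections dashed; the median is lowest in Saline NovaA-230, with a score of -0.58. Right, level of 9 genes as log2(summed CPM + 1) in the low, middle and high sections (89, 88 and 89 nuclei): Foxp2, Htr2c, Lhx9 and Nts fall, Synpo2, Plekhg1, Prkch and Lef1 climb, and Shox2 is level.

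Insulin against Saline within M5 gave no gene past the threshold. With edgeR's quasi-likelihood test on library sums, 0 of 9365 genes (0.00%) were called in either direction at a Benjamini-Hochberg adjusted p of 0.05, and the smallest adjusted p was 1.00. At an unadjusted p under 0.05 there were 212 genes. DESeq2 called 0, with 35 genes below that level, and limma-voom 0, with 207. With the sequencing run as a block edgeR called 0, with 426 genes under 0.05 and a smallest adjusted p of 0.0918. Without Saline NovaA-232 it called 158, without Saline NovaA-230 10, without Insulin NovaA-230 9 and without Insulin NovaA-232 7, each with a lone library that is assumed to vary like the other group. In 1233 genes (13.2%) both Insulin libraries lay above both Saline libraries, and in 1532 (16.4%) below them.

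The genes with the smallest p in each direction are given as values. Dach2, a cofactor of developmental transcription on chromosome X, was at 8.94 and 24.5 CPM in Saline and 64.1 and 61.4 CPM in Insulin, on 4, 28, 52 and 52 UMIs. Its log2 difference was 1.73 (SE 0.36; edgeR adjusted p 1.00), and no libraries overlapped. Without Saline NovaA-230 it was 1.41 and without Saline NovaA-232 it was 2.77. Plekhg1 was at 53.6 and 144 CPM in Saline and 197 and 217 CPM in Insulin, a log2 difference of 1.00 (SE 0.31; edgeR adjusted p 1.00); Saline NovaA-230, with few nuclei of the high section, was its lowest library, and the part of that mixture in the result was not tested. Without Saline NovaA-230 the difference of Plekhg1 was 0.58, and without Saline NovaA-232 it was 1.93. Within the high section Plekhg1 was at 89.7, 279, 350 and 472 CPM in the order Saline NovaA-230, Saline NovaA-232, Insulin NovaA-230 and Insulin NovaA-232, where Saline NovaA-230 rests on 6 nuclei, and within the low section all 4 libraries were between 7.94 and 22.3 CPM. Plekhg1 is among the genes with the strongest weights at the high end of the axis, so low values in the low section are partly built in. Sod1, Sin3a, Iglon5 and Gm26760 complete the upper side, with log2 differences of 0.92 to 1.82. Glis3, a zinc finger factor, was at 31.3 and 48.0 CPM in Saline and 19.7 and 10.6 CPM in Insulin (log2 difference -1.42, SE 0.42; edgeR adjusted p 1.00). Gm15584, L3mbtl4, Ckmt2, Gm12239 and Gm37982 complete the lower side, with log2 differences of -2.39 to -1.31.

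Immediate early genes, which neurons transcribe within minutes of strong activity, gave little to test. Only 5 of 26 (Jund, Nr4a1, Btg2, Per1 and Homer1) had enough counts, and their median log2 difference was 0.05 against -0.01 for all genes tested. In 0 of 5 were the groups apart, beside 13.2% (Insulin higher) and 16.4% (Insulin lower) of all genes tested. With 5 genes that count cannot be told from these shares. Homer1 was at 53.6 and 49.8 CPM in Saline and 51.7 and 53.1 CPM in Insulin. Fos rested on 27 UMIs in all, with 8.94 and 0.874 CPM in Saline and 7.39 and 18.9 CPM in Insulin. Those values overlapped. The 26 genes together reached 177 and 190 CPM in Saline and 165 and 231 CPM in Insulin, against 176 to 307 CPM in the other neurons.

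Of the insulin and IGF signalling list 30 genes were tested, 13 with a positive and 17 with a negative log2 difference, and their median was -0.02. The groups were apart for 10 of them, 4 higher (Rheb and Shc3 among them) and 6 lower (Pik3r1, Akt1, Rptor, Tsc1, Gsk3a and Ptpn2), all with an unadjusted edgeR p above 0.1. Those counts, 4 and 6 of 30, are set beside 13.2% and 16.4% of all genes tested. Insr and Irs2 overlapped between the groups. Of 15 thalamic relay genes tested, 5 were higher in both Insulin libraries, among them Prkcd, Plekhg1, Calb2 and Adarb1, Cacna1g and Lhx2 were lower, and the median was 0.14. Within run NovaA-230 that median was 0.26 and within run NovaA-232, which does not hold Saline NovaA-230, it was -0.13. Synpo2 itself was higher in both Insulin libraries by 0.52 on the log2 scale (SE 0.22; edgeR adjusted p 1.00). Without Saline NovaA-230 that value was 0.30, and without Saline NovaA-232 it was 0.82. For Tcf7l2, Ntng1, Rora and Slc17a6 the groups overlapped. Of 35 potassium channel genes 8 were higher in both Insulin libraries and 0 lower, with a median of 0.03; Kcnt1, a sodium-activated channel, was at 42.5 and 42.8 CPM in Saline and 70.2 and 61.4 CPM in Insulin. All 3 microglial markers tested, among them Cx3cr1 and P2ry12, were lower in both Insulin libraries, and P2ry12 was at 150 and 115 CPM in Saline and 88.7 and 80.3 CPM in Insulin (log2 difference -0.61, and -0.39 without Saline NovaA-230; edgeR adjusted p 1.00 for both).

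The treatment response of M5 was then set against that of all other neurons of the same libraries in 1 edgeR fit. Of 19058 genes, 6 responded more positively in M5 (0.0315%) and 2 more negatively (0.0105%) at a Benjamini-Hochberg adjusted p under 0.05. The number of calls depended on the setting. With the run as a block, 0 were called (656 at an unadjusted p under 0.05), and a limma-voom fit, added after the data were seen, also called 0 (776). That fit allowed M5 its own variance level, but the mean weights were 0.999 for the other neurons and 1.001 for M5. With a term for each library it cannot tell the variances of M5 and the other neurons apart. Without the 5% of nuclei with the most UMIs, 5 of the 8 were called, and Dach2, Vav3 and Gm28928 were not (edgeR adjusted p 1.00, 0.132 and 0.191). Without Saline NovaA-230, 2 genes were called, 1 of them among the 8, without Insulin NovaA-232 also 2, and without Saline NovaA-232, 44. The common dispersion was 0.00650 in this fit and 0.0330 in M5 alone. The fit set the variance of each gene wholly by a trend over genes, so its p-values do not follow the spread of a gene between its own libraries.

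Zfp804b, a zinc finger gene of unclear function at chr5:6769010-7344756, was at 395 and 788 CPM in Saline and 1396 and 799 CPM in Insulin within M5. The other neurons held 887 and 721 CPM in Saline and 778 and 721 CPM in Insulin. The difference of responses was 0.98 on the log2 scale (SE 0.16; edgeR adjusted p 9.49e-06). A single nucleus gave 311 of the 1133 UMIs in Insulin NovaA-230, and 1054 CPM remained there without it. Without Saline NovaA-230 the difference was 0.39 and without Insulin NovaA-230 it was 0.64 (edgeR adjusted p 1.00 for both). In the low section it was at 317, 663, 338 and 567 CPM and in the middle section at 345, 595, 356 and 688 CPM in the order used above, and in the high section at 777, 1094, 2414 and 1076 CPM. The groups overlapped in each of the 3 sections, and the high section of Saline NovaA-230 held 6 nuclei.

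Vav3, a guanine nucleotide exchange factor whose mean was highest in M5 of all populations, was at 168 and 366 CPM in Saline and 426 and 428 CPM in Insulin, and the other neurons at 31.3 to 38.9 CPM. Its difference of responses was 0.76 (SE 0.17; edgeR adjusted p 0.016) and 0.20 without Saline NovaA-230 (edgeR adjusted p 1.00). Within the low section it was at 156, 115, 188 and 143 CPM and within the middle section at 192, 293, 244 and 256 CPM, and the groups overlapped in both. Within the high section it was at 149, 607, 629 and 797 CPM, with both Insulin libraries above both Saline libraries; Saline NovaA-230 had 6 nuclei there. Dach2 had a difference of 1.52 (SE 0.31; edgeR adjusted p 0.0058); the other neurons held 29.5 to 38.1 CPM in the 4 libraries, and its M5 UMIs came from 3, 15, 15 and 12 nuclei. Both calls were lost when certain single libraries were left out: Vav3 also without either Insulin library (edgeR adjusted p 0.115 and 0.750), and Dach2 without Saline NovaA-230, Insulin NovaA-230 or Insulin NovaA-232 (edgeR adjusted p 0.945, 0.183 and 0.0921). The part that the mixture of nuclei had in these results was not tested.

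Adarb2, an inactive relative of the RNA-editing enzymes, and Gm28928, a long non-coding RNA, were called as well, with differences of 0.75 and 1.22 (edgeR adjusted p 0.0413 and 0.0145), but their Insulin and Saline libraries overlapped in M5. Without Insulin NovaA-232, which held 93 UMIs of it against 8 to 37 in the other libraries, the value of Gm28928 was -1.47. Adarb2 was at 0.10 without Saline NovaA-230 and 0.52 without Insulin NovaA-232, both with an edgeR adjusted p of 1.00. Mir670hg, the host transcript of a microRNA on chromosome 2, went the other way: it was at 82.7 and 55.0 CPM in Saline and 39.4 and 29.5 CPM in Insulin in M5, and at 87.4 and 73.2 CPM against 99.1 and 107 CPM in the other neurons. Its difference of -1.27 (SE 0.26; edgeR adjusted p 0.0062) is between groups that did not overlap in either set of nuclei, and the call was lost without Saline NovaA-230 (edgeR adjusted p 0.249) or Insulin NovaA-232 (0.750). Hbb-bs, a haemoglobin gene of red blood cells, had 2 and 47 UMIs in Saline and 0 in both Insulin libraries. Against a floor of 3 UMIs over the Insulin libraries it was at least 17.0-fold lower there. That bound rests on Saline NovaA-232: 6 of its nuclei carried the 47 UMIs, 1 of them held 23, and the 2 UMIs of Saline NovaA-230 lie under the floor, so that no fold can be given without it. The other neurons were at 9.82 and 12.5 CPM in Saline and 2.54 and 13.7 CPM in Insulin. Without Saline NovaA-232 that call was lost (edgeR adjusted p 0.969), as it was without Insulin NovaA-232 (1.00).

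**Figure D5:**
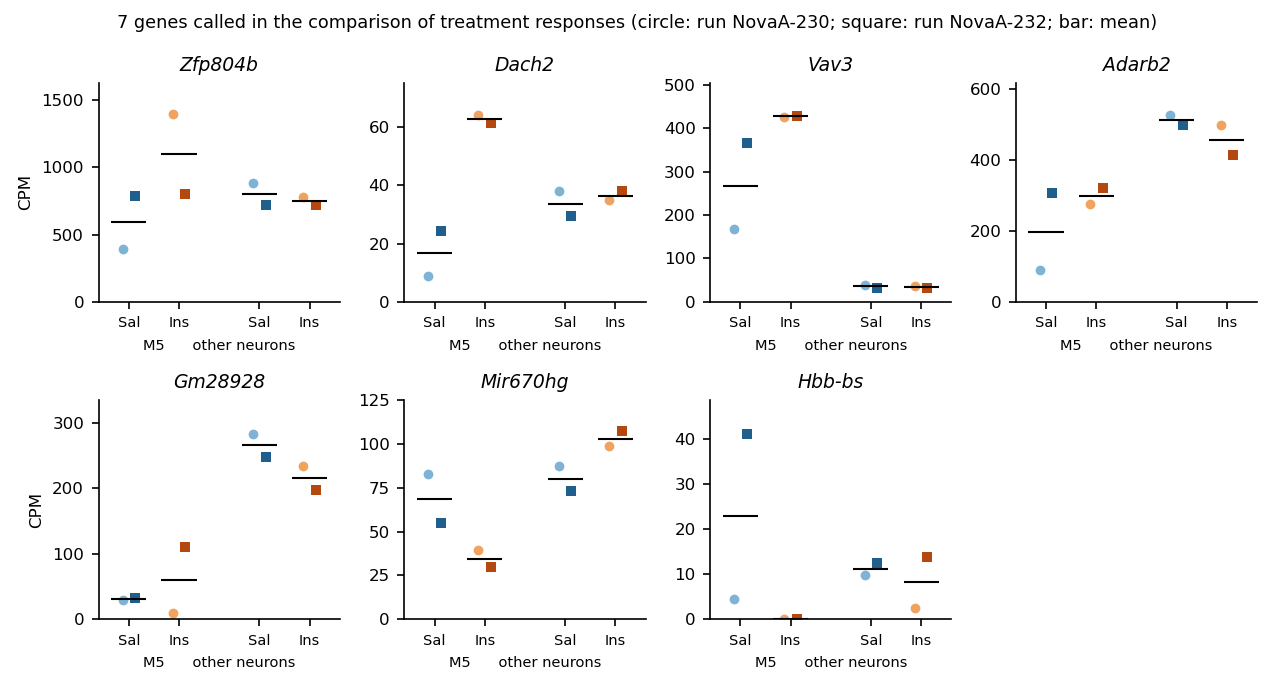
CPM of 7 of the 8 genes called in the comparison of treatment responses, in M5 (left pair) and in all other neurons (right pair), with circles for run NovaA-230, squares for run NovaA-232 and a bar at the mean of 2 libraries. In M5 the lowest Saline value of Zfp804b (395 CPM), Vav3 (168 CPM), Dach2 (8.94 CPM) and Adarb2 (89.4 CPM) is that of run NovaA-230.

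Run NovaA-232 against run NovaA-230, which is also a difference of sex, gave 27 called genes of 9365 in M5 by the same edgeR test: 19 higher (0.203%) and 8 lower (0.0854%). Of the genes of the sex chromosomes, Xist, which acts in X inactivation, reached 2.23 and 0 CPM in run NovaA-230 and 1829 and 1661 CPM in run NovaA-232. Uty, on the Y chromosome, was at 165 and 185 CPM in run NovaA-230 and 3.49 and 0 CPM in run NovaA-232. The X-linked demethylase gene Kdm5c was at 82.7 and 70.2 CPM in run NovaA-230 and 170 and 163 CPM in run NovaA-232 (log2 difference 1.09, SE 0.20; edgeR adjusted p 0.0301), beside 0.93 in the other neurons.

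Genes outside the sex chromosomes were called as well. The splicing-related genes Zranb2, Sltm and Son were higher in run NovaA-232 by 1.19, 1.06 and 0.99 on the log2 scale (edgeR adjusted p 0.0055, 0.0172 and 0.0263), beside 1.30, 1.05 and 0.80 in the other neurons. The ribosomal protein gene Rps29 was higher by 3.37, beside 3.31. Kcnn2, a calcium-activated potassium channel, fell by 0.98 (SE 0.19; edgeR adjusted p 0.0472), from 179 and 208 CPM in run NovaA-230 to 95.2 and 111 CPM in run NovaA-232, beside -0.40 in the other neurons. That call was lost without Saline NovaA-232 (edgeR adjusted p 0.334) or Insulin NovaA-232 (0.0766). The count of called genes was 74 without Saline NovaA-230, 49 without Saline NovaA-232 and 402 without Insulin NovaA-230. DESeq2 called 13 genes in this comparison, and the other neurons come from the same libraries, so the values are set side by side and not tested against each other.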

How the data were processed

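The authors deposited a matrix of raw UMI counts per gene and nucleus. The submitters' processing notes name Cell Ranger and the build GRCm38. The authors also deposited a table with the library, run, treatment and population of each nucleus. The Cell Ranger version is not given in the sources used here. Of 41156 barcodes, 36523 carried an annotation; 4633 had none and were left out, and the authors marked 423 nuclei as doublets, outside the neuron populations. The table gives the treatment of each library, but its library names match no sample title, so libraries are named by treatment and run. Nothing in the labels says that libraries are separate mice, so no p-value measures the spread between mice. In the fit of responses the variance of each gene was set wholly by a trend over genes (infinite prior degrees of freedom). Its p-values therefore do not measure the spread of each gene between libraries. The treatment fits with a library left out gave p-values that follow a normal distribution, as with infinite prior degrees of freedom. Those p-values, and the calls made from them, do not measure the spread of each gene between libraries either. For the run fits with a library left out this was not tested. The remaining p-values measure the spread between these libraries only.

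Counts were summed over nuclei by library for M5 and for each of 35 populations with at least 10 nuclei in every library. CPM are counts divided by all UMIs of the same nuclei and scaled to 1e+06. Sums were tested with edgeR 4.0.16 in R 4.3.3 (TMM, filterByExpr with minimum count 10 and minimum total 15, quasi-likelihood test, Benjamini-Hochberg adjustment over all genes tested, threshold 0.05; 2 residual degrees of freedom). The response of M5 was compared with other neurons in 1 fit with a term for each library. DESeq2 1.42.0 and limma 3.58.1 were alternatives. Shares were compared by exact permutation over libraries with scipy 1.17.1. The fits were tested on simulated counts with known changes.

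Members and gene lists were chosen with earlier results of these data known. Named genes are the 25 with the largest ratio of M5 to the mean of the other populations (0.5 CPM added) among those highest in M5 in every library; list members; and, for treatment and response, the 6 smallest p in each direction among genes whose groups did not overlap and with at least 20 UMIs, beside every called gene. Same-run libraries deviated together from their group means (r = 0.280 over 9365 genes), and the deposited table names the run. The main treatment fit held no term for the run, and fits with the run as a block are given as alternatives. Some genes and populations that were analysed, 1 of them a called gene, are not reported here; they remain in the counts and fits.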

Additional observations from a re-analysis of the deposited data

Results flagged for a closer look

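The response to insulin differed between M5 and the other neurons by the test of that difference for 8 genes, of which 7 are given here, on the log2 scale: Zfp804b (0.98), Dach2 (1.52), Vav3 (0.76), Gm28928 (1.22), Adarb2 (0.75), Mir670hg (-1.27) and Hbb-bs (-12.14). The value for Hbb-bs depends on the prior count of the fit, since both Insulin libraries held 0 UMIs, and is no size of effect. None of the 8 was called with the run as a block or by limma-voom. With a term for each library, that limma-voom fit cannot tell the variance of M5 from that of the other neurons. With libraries in groups of 2, no library could be tested as an outlier of its group.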

How the results depend on the processing

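With 2 libraries in each group, 1 library can decide a call. The count of genes called for insulin in M5 was 0, 6 without a filter on low counts, and 7 to 158 when 1 library was left out. The count for the response of M5 against other neurons was 8, and it was 0 with the run as a replicate block, 5 without the 5% of nuclei with the most UMIs, 0 with limma-voom and a separate variance level (an alternative chosen after seeing the data), and 2 to 44 when 1 library was left out. Gm28928 ranged from -1.47 (without Insulin NovaA-232) to 2.26 on the log2 scale with 1 library left out. The count for run NovaA-232 against run NovaA-230 was 27, and it was 133 without a filter on low counts, 13 with DESeq2 and 34 to 402 with 1 library left out. With the run as a replicate block the treatment count stayed at 0. The median of the early gene list was 0.011 to 0.20 on the log2 scale with 1 library left out. The difference in M5 share was 0.424 percentage points without Saline NovaA-232, against -0.0677, and -0.559 without Saline NovaA-230. The share of M5 nuclei with a Synpo2 UMI was 52.6% after thinning, against 84.6%. Without the 5% of nuclei with the most UMIs, Gm20063 was at 41.7 CPM (39.4) and Mctp2 at 49.5 CPM (45.4), and the other 23 signature genes moved by less than 1 SD. Where no reason is given here, the cause was not tested. The shallowest group, Saline NovaA-230 with 45 nuclei, limits what is detectable for genes with few UMIs.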

Other observations

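A subset of M5 carried the overlapping non-coding RNAs 4930407I19Rik and 1700023F02Rik. At least 1 UMI of the pair was found in 32 of 266 nuclei, with both in 18, and in 240 of 22995 other neurons (1.04%). All 32 were among the 89 nuclei of the low section, and 0 of 88 and 0 of 89 were in the other sections. Both RNAs were seen in enough nuclei (27 and 23) to be eligible for the axis and were not kept out of it. Their place on it may thus be partly built in. By library they were 11 of 45 nuclei in Saline NovaA-230 (24.4%, exact 95% interval 12.9 to 39.5%), 8 of 90 in Saline NovaA-232 (8.89%, 3.92 to 16.8%), 7 of 60 in Insulin NovaA-230 (11.7%, 4.82 to 22.6%) and 6 of 71 in Insulin NovaA-232 (8.45%, 3.16 to 17.5%). The intervals of all 4 libraries overlapped. The subset was found by looking at the values, and it gets no test.

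Because all 32 lie in the low section, their levels are set beside those of the other 57 nuclei of that section. Synpo2 was at 170 CPM in the 32 nuclei and 347 CPM in the 57, and Rnf220 at 795 and 1209 CPM. Tcf7l2, at 381 and 399.6 CPM, and Ntng1, at 2204 and 2217 CPM, were close. Prkch and Lef1 had 0 UMIs in the 32 nuclei and 7 and 5 UMIs in the 57. Nos1, the neuronal nitric oxide synthase, was at 71.5 CPM against 32.0 CPM, the serotonin receptor gene Htr2c at 1048 CPM against 579.9 CPM, and the neuropeptide S receptor gene Npsr1 at 176 CPM against 129.8 CPM. Of the 27 Fos UMIs in M5, 13 fell in the 32 nuclei and 1 in the 57. Their median depth was 8843 UMIs, against 11178.5 in all other M5 nuclei.

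Some genes were lower in M5 than in any other population in every library. Xkr6, a scramblase-related gene, averaged 136 CPM against 307 CPM in the next lowest population, Phactr1, a regulator of actin and phosphatase 1, 303 CPM against 384 CPM, and the dendritic protein gene Map2 567 CPM against 701 CPM.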
